A study of Equus asinus with 3 samples.

Results

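The proteasome genes of the donkey (Equus asinus) were described across germ and somatic cells of the testis and of the epididymis, the duct in which sperm mature. They were taken by name, as the features called PSM, a letter from A to G and digits, and 47 of 34267 features met that rule. This choice was made with earlier results of these data known. All 47 were listed in the testis and caput libraries, and 46 in the corpus library, where PSMB11 was not among the features. By role they were 8 genes of the alpha ring of the 20S core, 6 of its constitutive beta ring, 4 of its immune and thymic beta subunits, 6 ATPases and 11 non-ATPases of the 19S cap, 3 chaperones of cap assembly, 4 chaperones of core assembly, and 5 activators and inhibitors. The beta subunit PSMB4 was not listed under that symbol and is treated apart, because its locus identifier falls outside the rule.

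The proteasome is the main protease of the cytosol and nucleus for proteins tagged with ubiquitin. Its 20S core is a barrel of alpha rings, which gate the entrance, around beta rings, which hold the cutting sites, and the 19S cap binds, unfolds and feeds in tagged proteins. Cells can exchange parts: interferon-induced PSMB8, PSMB9 and PSMB10 replace the cutting subunits PSMB5, PSMB6 and PSMB7, and activators such as PSME1 with PSME2, PSME3 or PSME4 can take the place of the cap. In mouse testis PSMA8 replaces its paralog PSMA7 in the alpha ring of germ cells, and loss of PSMA8 or PSME4 impairs male fertility.

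The study profiled single cells from testis and epididymis of 3 sexually mature males, with 1 library each of testis, epididymis caput (the head of the duct) and epididymis corpus (its body) (which animals gave which library: not given in the sources used here). Tissue kept at most 48 h in storage solution was digested with 0.2% collagenase IV and DNase I at 37 °C, over 15 min, and its cells were captured in DNBelab C4 droplets. The labels call the testis cells germ cells and the epididymal cells somatic cells, with no sort described and no treatment or genotype. Each group is 1 library, so no comparison has a replicate check and no p-value is given. Intervals are exact 95% intervals that cover counting error only.

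The libraries held 47686179 UMIs (unique molecular identifiers, counting captured RNA molecules) in 8610 barcodes in testis, 13203203 in 9478 in caput and 4142512 in 9611 in corpus, so caput and corpus values are less precise. UMIs were summed per cell class and expressed per 1000000 UMIs of that class (CPM), with no length correction. In testis 7941 germ cells fell into classes called, from early to late, spermatocyte-like (397 cells), transition (4383 cells, in which no stage list passed), round spermatid-like (1639), advanced (676, with round and elongating markers) and elongating spermatid-like (180), with 666 further germ barcodes rich in very long genes. Late spermatocyte markers made up 1.34% of UMIs in spermatocyte-like cells. In the transition clusters they made up 1.37% (1487 cells), 1.32% (1028), 1.24% (823) and 1.12% (1045). Much of the transition class is thus not set apart from spermatocyte-like cells by that list, and the step between these classes depends on the naming threshold. Only 142 testis cells were somatic-like. Class names stand for clusters that resemble a cell type by marker genes. Caput held 4756 named somatic cells and, against its label, 252 germ-like cells, 146 of several stages and 106 elongating, and corpus held 4388 named somatic cells. A further 4470 caput and 5221 corpus barcodes, rich in very long genes and poor in markers, belong to no named cell type and are described at the end.

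Marker RNA of the other compartment was found in several classes. The testis somatic cells still held 42.4% of the germ cells' share of germ marker RNA, and testis T or NK-like cells held 21.6%. Caput somatic cells held 4.54% of it and corpus somatic cells 3.29%. In the other direction DEFB119, a luminal epithelial gene, stood at 872 CPM in caput germ cells of several stages and 3171 CPM in caput elongating cells, against 14333 CPM in caput luminal cells and 2.83 CPM in testis germ cells. The part of this RNA in the comparisons below was not tested.

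Proteasome genes together made up 0.762% of all UMIs in testis germ cells and 0.722% in caput germ cells of several stages, against 0.662% in testis somatic cells, 0.399% in caput somatic cells and 0.279% in corpus somatic cells. In caput elongating cells the share was 0.339%. The difference varied by role: the alpha ring summed to 1279 CPM in testis germ cells and 1189 CPM in caput germ cells of several stages, close to the 1144 CPM of caput somatic cells. The 19S non-ATPases differed more, at 3191 and 2625 CPM in the same germ classes against 727 CPM in caput somatic cells. The immune and thymic beta subunits went the other way, at 3.71 and 27.8 CPM against 227 CPM.

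**Figure D1:**
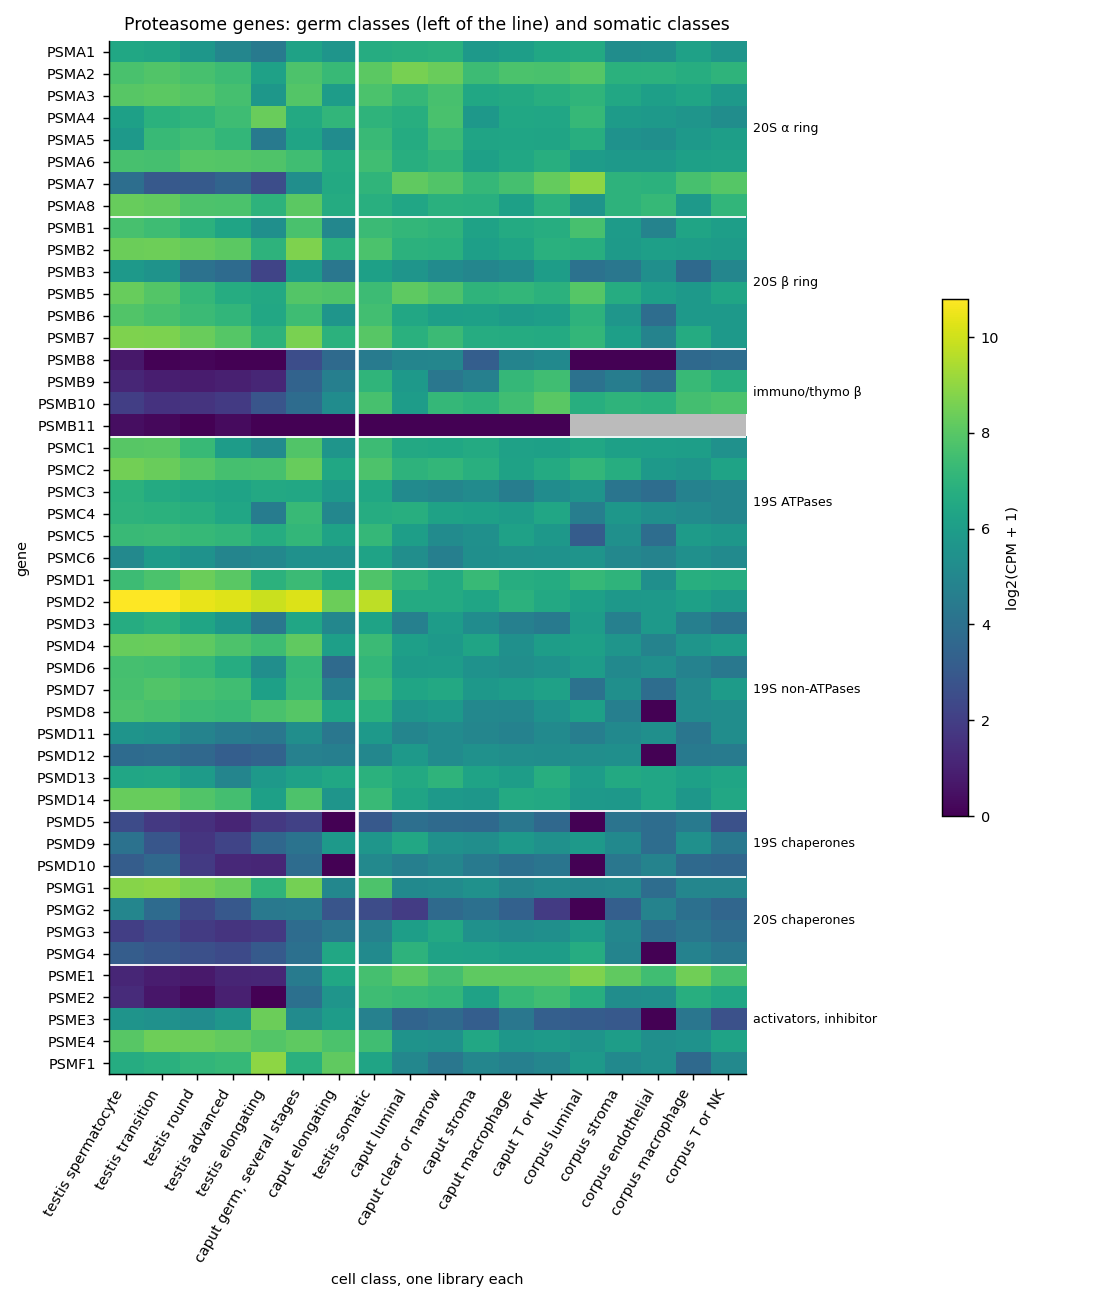
Level of each of the 47 proteasome genes, as log2(CPM + 1), in 7 germ classes (left of the white line) and 11 somatic classes (right of it), with genes grouped by role; grey marks a gene not listed in that library. PSMA7, PSMB8 to PSMB10, PSME1 and PSME2 are dark in testis germ classes, and PSMD2 is brightest there, at 1771 CPM in spermatocyte-like cells.

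Of the alpha ring pair PSMA8 and PSMA7, testis germ cells held mostly PSMA8, and luminal cells, macrophages and T or NK-like cells of the epididymis mostly PSMA7. PSMA8, the germ-cell form of this alpha subunit in mouse, had 313 CPM in testis spermatocyte-like cells, 289 in transition, 219 in round, 213 in advanced and 127 in elongating cells. PSMA7, the ubiquitous form, had 14.1, 7.17, 7.42, 10.1 and 4.92 CPM in the same order. Among the UMIs of the pair, PSMA8 made up 97.0% in testis germ cells (11793 UMIs of PSMA8 and 359 of PSMA7, interval 96.7 to 97.3%). The share lay between 95.5% and 97.6% in the 5 stages. It was lower in spermatocyte-like cells (95.7%, 94.3 to 96.8%) and advanced cells (95.5%, 94.0 to 96.7%) than in transition cells (97.6%, 97.2 to 97.9%), with intervals that do not overlap that of transition cells. The transition class was not uniform. Its largest cluster (1487 cells) had 95.9% (95.1 to 96.6%), which overlapped spermatocyte-like and advanced cells, and its other clusters had 98.5% to 98.6%. The difference thus lay in those other clusters and not in the whole class.

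Caput germ cells of several stages also held mostly PSMA8, at 87.4% of the pair (81.8 to 91.7%), while caput elongating cells had 16 UMIs of PSMA8 and 15 of PSMA7 (33.1 to 69.8%). Among somatic classes PSMA8 was 22.6% in caput luminal epithelial-like cells (20.4 to 25.0%), 26.3% in caput macrophages, 28.6% in caput T or NK-like cells (24.6 to 32.9%), 33.3% in caput clear or narrow cells and 42.8% in caput stroma. In corpus it was 8.70% in luminal cells (3.26 to 18.0%), 22.1% in macrophages, 35.9% in T or NK-like cells, 49.8% in stroma (43.8 to 55.8%) and 55.0% in endothelial cells, where it rested on 11 UMIs of PSMA8 and 9 of PSMA7. The 2 stromal clusters of corpus differed, at 45.5% (39.1 to 52.0%) in the larger and 76.9% (60.7 to 88.9%) in the smaller, which had 30 UMIs of PSMA8 and 9 of PSMA7. Listed very long genes made up 0.579% of UMIs in the larger and 0.829% in the smaller. In corpus luminal, T or NK-like and endothelial cells they made up 0.326%, 0.761% and 0.836%. Whether the PSMA8 share follows these values was not tested. The interval of caput germ cells of several stages lay above that of every caput somatic class, and that of caput elongating cells overlapped stroma and clear or narrow cells. Testis somatic cells stood at 45.2% with 42.4% of the germ cells' germ marker RNA, and testis T or NK-like cells at 22.2% (8.62 to 42.3%).

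PSMA8 in epididymal somatic cells was not in proportion to other germ RNA. It stood at 34.6% of its testis germ level in caput somatic cells and 41.7% in corpus somatic cells, where germ marker RNA stood at 4.54% and 3.29% of its own testis germ level. By class PSMA8 had 46.7 CPM in corpus and 82.6 CPM in caput luminal cells, and 138 CPM in corpus and 120 CPM in caput T or NK-like clusters. CLGN, a germ-cell chaperone, had 4927 CPM in testis germ cells, against 113 CPM in caput luminal cells and 23.3 CPM in corpus luminal cells. The source of this PSMA8 was not tested.

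**Figure D2:**
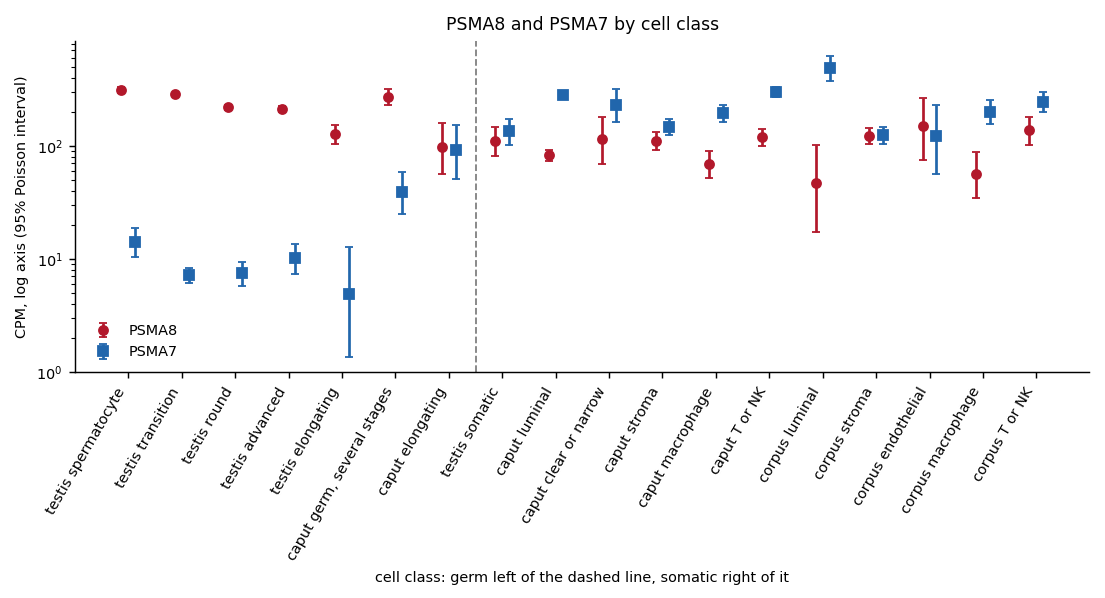
CPM on a log axis of PSMA8 (circles) and PSMA7 (squares) with 95% Poisson intervals, in germ classes left of the dashed line and somatic classes right of it. PSMA8 at 127 to 313 CPM lies far above PSMA7 at 4.92 to 14.1 CPM in the 5 testis germ stages, and PSMA7 lies above PSMA8 in caput luminal, macrophage and T or NK-like cells.

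Testis germ cells were next set against the 142 somatic-like cells of the same library. To be counted as higher or lower, a gene needed an interval wholly past 2-fold and at least 50 UMIs on its higher side. Since 50 UMIs are a lower CPM in a class with more UMIs, weak features are tested mainly where that class is higher. Medians over the features tested, and scaling by them, carry this selection. Of the 47 proteasome genes 35 reached 50 UMIs on the higher side, of which 0 were higher, against 1.78% of all features tested, and 5 were lower, against 4.34%. The 5 were PSMA7, the immune beta subunits PSMB9 and PSMB10, and the activator pair PSME1 and PSME2. The median log2 ratio was 0.24 over the proteasome genes tested and 0.66 over all 10813 features tested. Here 50 UMIs were 1.13 CPM in germ cells and 118 CPM in somatic cells.

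PSMA7 had 8.13 CPM in germ cells and 134 CPM in somatic cells, 16.5-fold lower (12.3 to 21.9). PSMB9, which replaces PSMB6, had 1.2 against 134 CPM, and PSMB10, which replaces PSMB7, had 2.29 against 200 CPM, which is 112-fold (75.7 to 166) and 87.7-fold (64.9 to 118) lower. The activator subunits PSME1 and PSME2 had 0.837 and 0.611 CPM in germ cells, against 193 and 175 CPM in somatic cells, 231-fold (155 to 350) and 286-fold (182 to 462) lower. PSMB8, which replaces PSMB5, had 4 UMIs in germ cells and 9 in somatic cells, too few for the 50 UMI minimum. The constitutive cutting subunits did not differ beyond 2-fold, with PSMB5 at 206 CPM, PSMB6 at 184 CPM and PSMB7 at 360 CPM, against 167, 182 and 252 CPM in somatic cells.

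No cap gene was called beyond 2-fold in testis germ cells. Germ marker RNA itself made up 2.51% of UMIs in germ cells and 1.07% in these somatic cells. Of all features tested 1.78% were called higher in this comparison. How far germ RNA in the somatic cells limited the calls was not tested. The median log2 ratio was 0.11 over the 5 ATPases tested and 0.36 over the 9 non-ATPases tested. Over all features tested it was 0.66, a median that carries the selection by UMIs. PSMD2, a large scaffold of the cap, had 1599 CPM in germ cells and 849 CPM in somatic cells, a ratio of 1.88 (1.70 to 2.09). PSMG1, a chaperone of core assembly, had 437 against 219 CPM, a ratio of 1.99 (1.63 to 2.47). PSMD4, a ubiquitin receptor of the cap, had a ratio of 1.799 (1.42 to 2.31), and PSMD14, the cap's deubiquitinase, 1.72 (1.35 to 2.21). Outside the cap, the activator PSME4 had a ratio of 1.84 (1.47 to 2.34) and PSMA8 one of 2.41 (1.81 to 3.28). Set against the testis T or NK-like cells alone, the somatic class with the least germ RNA, PSMD2 was higher, at 1599 against 500 CPM (3.20-fold, 2.34 to 4.50). It was the single gene called of 24 tested, with 0 lower, where 4.25% and 1.12% of all features were higher and lower. Those 33 cells held 78073 UMIs, so 50 UMIs there meant 640 CPM, and PSMA7 with 21 UMIs, PSMB9 with 28 and PSME1 with 15 could not be called. Against testis stroma alone, 0 of 26 tested were higher and 0 lower, with 0.633% and 2.49% of all features so called. There the 5 genes lower in the main comparison had 14 to 49 UMIs in stroma, under the 50 UMI minimum. PSME1 had 0.837 CPM in germ cells and 182 CPM in stroma, 217-fold lower (138 to 344), and PSMA7 8.13 and 105 CPM, 12.9-fold lower (8.36 to 19.04). At a clustering resolution of 0.5 the main comparison had 2 higher and 0 lower. There the clusters with stromal genes had intermediate germ RNA and were left out. The somatic side was then 33 T or NK-like and 18 macrophage-like cells. In the main clustering these classes held 28 and 14 UMIs of PSMB9 and 15 and 14 of PSME1, too few for the 50 UMI minimum.

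In caput, germ cells of several stages could be set against 4756 somatic cells of the same library with little germ RNA. Of 41 proteasome genes tested, 14 were higher in germ cells (34.1%, against 12.3% of all features tested) and 8 were lower (19.5%, against 21%). The median log2 ratio was 0.80 over the proteasome genes tested and -1.26 over all 12904 features tested. After scaling by that median the counts were 24 higher and 2 lower, with PSME1 and PSME2 the 2. The 5 genes lower in testis germ cells, all of that list, were among the 8 lower here. The matching overlap over all features was not computed, so this overlap has no background share and nothing is concluded from it.

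By role, the higher genes in caput germ cells were 6 of 10 tested 19S non-ATPases, 2 of 5 tested ATPases, 2 of 5 tested constitutive beta subunits, 1 of 8 alpha subunits, 1 of 3 tested core chaperones and 2 of 4 tested activators and inhibitors. PSMD2 had 1197 CPM in germ cells and 94.99 CPM in somatic cells, 12.6-fold higher (11.3 to 14.0), and PSMG1 374 against 35.1 CPM, 10.6-fold higher (8.84 to 12.8). PSMD8, a cap lid subunit, was 5.67-fold higher (4.62 to 6.93), PSMD4 4.37-fold (3.65 to 5.22) and PSMD14 2.82-fold (2.32 to 3.42). The higher gene of the alpha ring was PSMA8, at 271 against 92.5 CPM, 2.93-fold (2.46 to 3.48).

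In the constitutive beta ring PSMB2, which has no cutting site, was 3.92-fold higher (3.39 to 4.52) and PSMB7 3.58-fold (3.08 to 4.15). PSMB5 did not differ beyond 2-fold, at 238 against 211 CPM, a ratio of 1.13 (0.946 to 1.34), and PSMB6 had a ratio of 2.29 (1.84 to 2.82). The ATPases PSMC2 and PSMC1, motors of the cap base, were 2.73-fold (2.31 to 3.20) and 2.72-fold (2.25 to 3.27) higher. PSME4, which caps the core in germ cells of mouse, was 4.996-fold higher (4.14 to 6.002), and PSMF1, an inhibitor of the core in vitro, 3.94-fold (2.96 to 5.19). PSME3, the nuclear activator, had 35.9 against 10.6 CPM with 22 UMIs in germ cells, under the 50 UMI minimum.

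The 8 lower genes in caput germ cells were PSMA7, PSMB9, PSMB10, PSME1, PSME2 and 3 assembly chaperones. PSME1 had 21.2 CPM in germ cells and 268 CPM in somatic cells, 12.6-fold lower (7.37 to 23.8), and PSME2 14.7 against 144 CPM, 9.77-fold lower (5.13 to 21.4). PSMB10 was 9.23-fold lower (4.66 to 21.4), PSMB9 8.15-fold (3.72 to 22.3) and PSMA7 6.44-fold (4.32 to 10.1), and PSMB8 had 4.90 against 26.3 CPM, with an interval that reached 2-fold. The chaperones PSMG4 and PSMG3, partners in alpha ring assembly, were 6.62-fold (3.47 to 14.5) and 4.18-fold (2.097 to 9.74) lower, and PSMD9, a chaperone of the cap base, 4.19-fold (2.26 to 8.79). PSMG1 was thus higher in caput germ cells and PSMG3 and PSMG4 lower, except that the calls of PSMG3 and PSMG4 ended after scaling by the median. In testis PSMG3 had 3.46 CPM in germ cells and 25.9 CPM in somatic cells and PSMG4 5.93 and 35.4 CPM, both under the 50 UMI minimum.

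Against caput luminal cells alone 13 of 41 were higher and 8 lower, with 17.1% and 20.2% of all features so called. Caput elongating cells, in which germ markers made up 3.56% of 163341 UMIs, had 1 gene higher than somatic cells of 31 tested and 0 lower, where 2.2% and 0.992% of all features were. It was PSMD2, at 324 against 94.99 CPM, 3.42-fold (2.53 to 4.52). PSMF1 had 282 against 29.4 CPM there, with 46 UMIs in the elongating cells and an interval of 6.79 to 13.3 for the ratio, just under the 50 UMI minimum. Against luminal cells alone PSMD2 was again the 1 gene higher of 33 tested, with 0 lower, against 3.48% and 2.79% of all features.

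**Figure D3:**
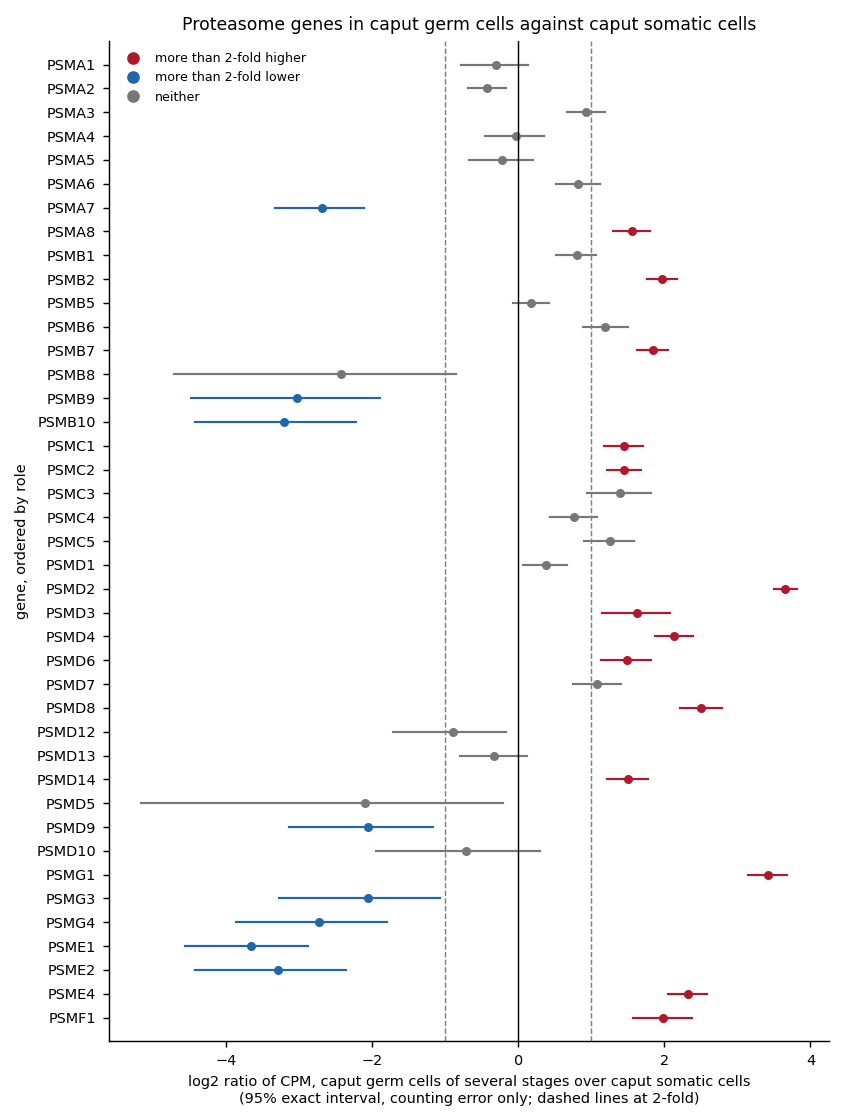
Log2 ratio of CPM in caput germ cells of several stages over caput somatic cells for the 41 proteasome genes tested, with 95% intervals that cover counting error; dashed lines mark 2-fold. The 14 genes higher (red) include PSMD2 at 12.6-fold and PSMG1 at 10.6-fold, and the 8 lower (blue) include PSME1, PSME2, PSMB9, PSMB10 and PSMA7.

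Along the testis germ classes most proteasome genes were lowest at the end, as were most of all features tested. Of the 47 genes 27 had their lowest CPM in elongating cells, 23 had their highest in spermatocyte-like cells and 15 in transition cells, and 12 had a lower CPM at each successive class, a description with no interval on the steps. Among the 35 tested between elongating and spermatocyte-like cells, 68.6% were lowest in elongating cells and 34.3% were lower at each successive class, against 58.3% and 30.4% of all 6873 features tested. Of the same 35, 48.6% were highest in spermatocyte-like cells, near the 46.6% of all features tested. Highest in transition cells were 34.3%, against 18.2%. The constitutive beta ring summed to 1552 CPM in spermatocyte-like, 1393 in transition, 1060 in round, 846 in advanced and 474 CPM in elongating cells. The ATPases summed to 1054, 1016, 779, 581 and 480 CPM in the same order. Activators and inhibitors summed instead to 403, 501, 501, 498 and 1066 CPM.

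Few genes differed beyond 2-fold before the last stages. Transition cells had 1 higher of 38 tested and 0 lower, against 15.3% and 2.48% of all features. Round cells had 1 higher and 4 lower of 35 tested, against 35.8% and 12.4% (with the PSM genes kept in clustering, 0 higher), and after scaling by the median ratio 0 higher and 8 lower. Advanced cells had 2 higher and 8 lower of 35 tested, against 36.7% and 19.6%. Elongating cells had 3 higher and 17 lower of 35 tested, that is 8.57% and 48.6%, against 21.5% and 35.7% of all features tested. The median log2 ratio of elongating over spermatocyte-like cells was -1.30 over the proteasome genes tested and -1.16 over all 6873 features tested, and after scaling by that median 4 were higher and 2, PSMB3 and PSMC1, lower. At a clustering resolution of 0.5, where the spermatocyte-like class had 2153 cells and the elongating class 244, there were 6 lower.

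The constitutive beta ring had 6 of 6 genes lower in elongating than in spermatocyte-like cells (PSMB3 alone after scaling by the median), beside 4 of 7 tested alpha subunits, 2 of 6 ATPases and 4 of 10 tested non-ATPases. PSMB3, a structural beta subunit, had 56.6, 45.3, 16.0, 12.6 and 3.69 CPM from spermatocyte-like to elongating cells and was 15.4-fold lower at the end (5.17 to 75.1), on 3 UMIs in elongating cells. PSMB5 had 314, 235, 143, 101 and 89.8 CPM, 3.50-fold lower (2.75 to 4.50). PSMB7 and PSMB6, the other constitutive cutting subunits, were 3.28-fold (2.69 to 4.05) and 2.64-fold (2.07 to 3.42) lower, and PSMB1 4.98-fold (3.51 to 7.29). PSMB5 and PSMB3 had already passed 2-fold in round cells, where they were 2.19-fold (2.02 to 2.38) and 3.54-fold (2.84 to 4.42) lower.

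In the cap PSMC1 had 256, 259, 153, 61.2 and 35.7 CPM over the 5 classes and was 7.18-fold lower in elongating cells (4.97 to 10.8), and PSMC4 was 5.68-fold lower (3.55 to 9.69). PSMD3, PSMD6 and PSMD14, of the lid, were 5.54-fold (3.31 to 10.02), 4.92-fold (3.45 to 7.26) and 4.49-fold (3.43 to 5.99) lower. PSMD4 was lower by less, at 175 CPM in elongating and 315 CPM in spermatocyte-like cells, a ratio of 0.554 (0.462 to 0.661). PSMD1, a scaffold of the cap base, peaked in between, at 166, 213, 326, 263 and 123 CPM. In the alpha ring PSMA3 was 4.82-fold (3.54 to 6.75), PSMA1 4.09-fold (2.51 to 7.11) and PSMA8 2.47-fold (2.02 to 3.06) lower. PSMG1, highest of the core chaperones, had 132 CPM in elongating and 451 CPM in spermatocyte-like cells, 3.43-fold lower (2.82 to 4.21).

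PSMF1, PSMA4 and PSME3 ran against the others and were higher in elongating cells. PSMF1 had 101, 114, 138, 150 and 491 CPM from spermatocyte-like to elongating cells, 4.87-fold higher at the end (4.20 to 5.65). PSMA4, an alpha subunit, had 69.5, 117, 134, 170 and 317 CPM, 4.57-fold higher (3.80 to 5.48), and these were the 2 genes with a higher CPM at each successive class. PSME3 stayed between 37.5 and 49.2 CPM in the first 4 classes and had 333 CPM in elongating cells, 7.07-fold higher (5.78 to 8.67). PSMA5, another alpha subunit, had 55.7, 153, 177, 139 and 20.9 CPM, so it was 2.74-fold higher in transition (2.36 to 3.19), 3.17-fold in round (2.72 to 3.72) and 2.49-fold in advanced cells (2.105 to 2.95). PSME4 did not differ beyond 2-fold, at 241 CPM in elongating and 252 CPM in spermatocyte-like cells, a ratio of 0.957 (0.814 to 1.12).

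Elongating against advanced cells had 2 genes higher and 4 lower of 31 tested, against 7.72% and 11.3% of all features. PSME3 was 6.77-fold (5.64 to 8.14) and PSMF1 3.27-fold (2.88 to 3.71) higher. PSMA5 was 6.63-fold (4.11 to 11.5), PSMC4 3.77-fold (2.35 to 6.43), PSMA3 3.74-fold (2.74 to 5.23) and PSMD14 2.74-fold (2.09 to 3.66) lower. The elongating class is 180 cells of 1 library, in which TNP1, a transition protein of condensing spermatids, stood at 25448 CPM against 57.0 CPM in spermatocyte-like cells, and CPM is a share of that changed total.

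Caput elongating cells against caput germ cells of several stages gave 0 higher and 13 lower of 24 tested, against 10.4% and 39.9% of all features, with median log2 ratios of -1.75 over the proteasome genes tested and -1.60 over all features tested. Of the 17 genes lower in testis elongating cells and the 13 lower here, 10 were shared, among them PSMB1, PSMB7, PSMC1, PSMC4, PSMD6, PSMD14 and PSMG1. Among genes tested in both, these 10 were 66.7% of those lower in testis and 76.9% of those lower in caput, against 62.0% and 71.8% over all features tested in both. PSMG1 had 30.6 CPM in elongating cells and 374 CPM in germ cells of several stages, 12.2-fold lower (5.16 to 38.0). PSMF1 had 282 against 116 CPM with 46 UMIs in elongating cells, a ratio of 2.43 (1.64 to 3.57), PSMA4 135 against 93.1 CPM and PSME3 61.2 against 35.9 CPM, all under the 50 UMI minimum.

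**Figure D4:**
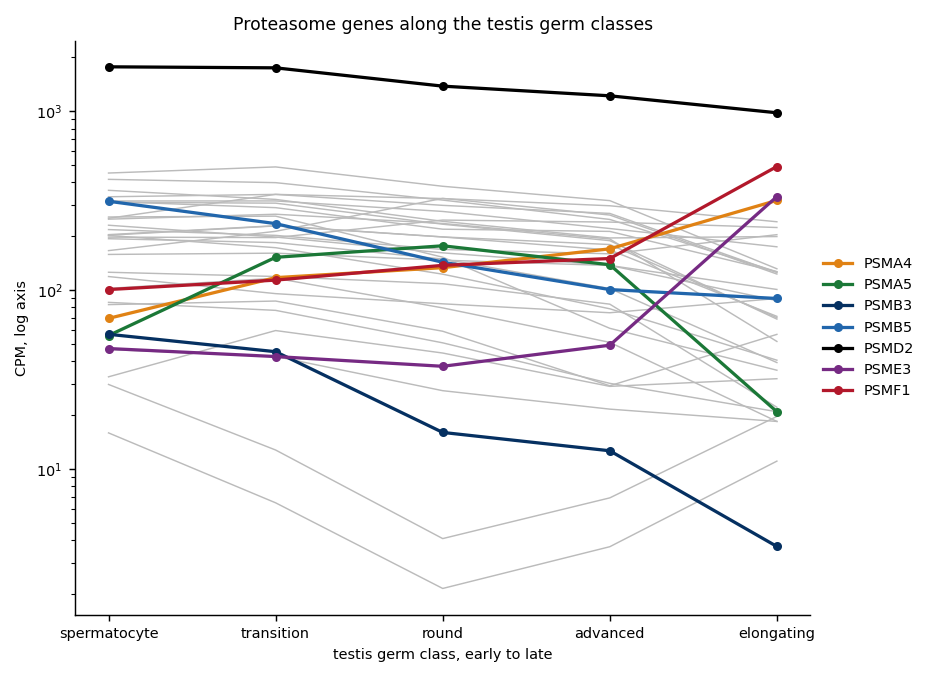
CPM on a log axis of the 35 proteasome genes tested between elongating and spermatocyte-like cells, along 5 testis germ classes; coloured lines name 7 genes and grey lines are the others. PSMF1, PSMA4 and PSME3 end at 491, 317 and 333 CPM while PSMB3 ends at 3.69 CPM.

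The immune subunits took a small share of the cutting subunits in germ cells and the largest share in leukocytes. The UMIs of PSMB8, PSMB9 and PSMB10 made up 0.475% of those of PSMB5 to PSMB10 in testis germ cells (0.404 to 0.555%), 3.34% in caput germ cells of several stages (1.96 to 5.29%) and 15.6% in caput elongating cells (8.32 to 25.6%). In caput somatic classes they made up 62.5% in T or NK-like cells (59.2 to 65.7%) and 53.8% in macrophages (49.3 to 58.3%), against 35.4% in stroma, 30.2% in clear or narrow cells and 23.3% in luminal cells (21.6 to 25.1%). Corpus gave 63.9% in T or NK-like cells (56.7 to 70.7%) and 62.4% in macrophages (55.1 to 69.4%), against 41.2% in stroma and 19.5% in luminal cells. Corpus endothelial cells had 55.6% on 18 UMIs, with an interval (30.8 to 78.5%) that overlapped both leukocyte classes. In testis the share was 53.6% in T or NK-like cells (43.2 to 63.8%) and 40.6% in macrophages (28.9 to 53.1%). Testis stroma had 32.2% (25.9 to 39.1%), which overlapped macrophages, and testis endothelial cells 14.3% on 35 UMIs. These shares compare UMIs of different genes without length correction.

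By gene, caput T or NK-like cells had 2 of 41 tested genes higher than the other caput somatic cells and 0 lower, where 4% and 5.63% of all features were. PSMB9 had 179 CPM in T or NK-like cells and 59.7 CPM in the others, 3.00-fold higher (2.51 to 3.58), and PSMB10 257 against 93.0 CPM, 2.77-fold higher (2.39 to 3.20). Caput stroma had 0 higher and 1 lower of 40 tested, against 5.95% and 5.37%, and the gene was PSMB9, at 24.9 against 90.3 CPM, 3.62-fold lower (2.46 to 5.55). PSMB10 did not follow it in stroma, at 130 against 119 CPM. Caput luminal cells had 0 higher and 1 lower of 44 tested, against 3.8% and 9.73%, and the gene was PSMB10, at 62.1 against 189 CPM, 3.04-fold lower (2.60 to 3.55). After scaling by the median ratio luminal cells also had 2 higher.

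Caput macrophages had 0 higher and 0 lower of 41 tested, against 3.75% and 2.97% of all features, though PSMB9 stood at 143 against 71.9 CPM, a ratio of 1.99 (1.60 to 2.46). After scaling by the median ratio 1 gene was higher. Clear or narrow cells had 0 and 0 of 21 tested, against 0.744% and 1.98%. In corpus, PSMB9 was higher in macrophages, at 152 against 40.8 CPM (3.74-fold, 2.55 to 5.44), the 1 gene called of 24 tested with 0 lower, against 3.62% and 6.86%. It was lower in corpus stroma, at 22.7 against 105 CPM (4.61-fold, 2.96 to 7.42), the 1 gene called of 26 tested with 0 higher, against 6.69% and 7.07%. Corpus luminal cells had PSMA7 higher, at 490 against 161 CPM (3.05-fold, 2.29 to 4.01), the 1 of 13 tested with 0 lower, against 2.02% and 4.84% (0 higher with at least 500 genes per cell). Corpus T or NK-like and endothelial cells had 0 genes called of 24 and 31 tested, with 1.51% and 0.115% of all features higher and 6.16% and 2.06% lower. PSMB9 was thus called lower in stroma of both epididymal libraries, and called higher in T or NK-like cells of caput and in macrophages of corpus. These calls do not show that its leukocyte class differed between the regions. In corpus T or NK-like cells PSMB9 had 41 UMIs, under the UMI minimum, and was not tested. In caput macrophages its ratio of 1.99 (1.60 to 2.46) fell short of a call.

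The activators also differed between germ and somatic cells. PSME1, which forms the interferon-induced activator with PSME2, had 0.837 CPM in testis germ cells, against 188 to 280 CPM over the caput somatic classes and 177 to 420 CPM over those of corpus. PSME4 had 326 CPM in testis germ cells and 278 CPM in caput germ cells of several stages, against 42.5 to 88.6 CPM in caput somatic classes. Of the UMIs of PSME4 and PSME1, PSME4 made up 99.7% in testis germ cells (99.6 to 99.8%), 92.9% in caput germ cells of several stages (88.2 to 96.2%) and 71.4% in caput elongating cells (56.7 to 83.4%), against 17.2% in caput somatic cells (15.6 to 18.8%) and 17.4% in corpus somatic cells (14.7 to 20.4%). In testis somatic cells it made up 47.8% (39.7 to 55.9%), in the class that held 42.4% of the germ cells' germ marker RNA. Of PSME3 and PSME1 the UMIs of PSME3 made up 98.3% in testis germ cells and 3.80% in caput somatic cells.

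**Figure D5:**
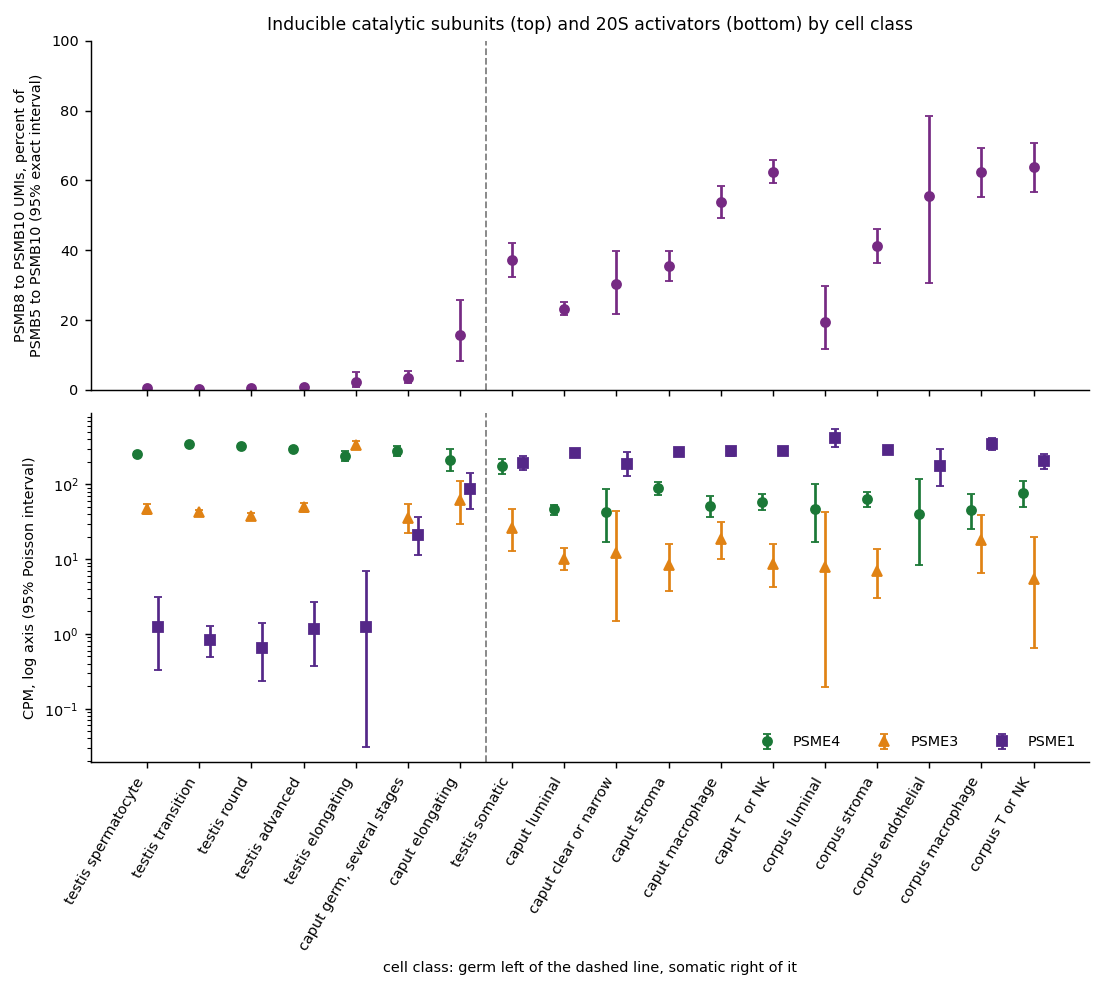
Top, UMIs of PSMB8 to PSMB10 as a percentage of those of PSMB5 to PSMB10 with exact 95% intervals; bottom, CPM on a log axis of PSME4, PSME3 and PSME1 with 95% Poisson intervals (classes with 0 UMIs have no point); germ classes stand left of the dashed line. Testis germ cells as a whole had 0.475%, against 62.5% in caput and 63.9% in corpus T or NK-like cells, and PSME1 lies below PSME4 in every germ class and above it in epididymal somatic classes.

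No proteasome gene tested was called beyond 2-fold between corpus and caput in the 4 classes they share, which required the whole interval past 2-fold. In either direction the calls were 0 of 28 in luminal cells, 0 of 27 in stroma, 0 of 20 in macrophages and 0 of 31 in T or NK-like cells. Of all features 1.09%, 0.388%, 2.09% and 1.76% were higher and 1.82%, 2.05%, 4.85% and 3.41% lower in corpus, in the same order of classes. PSMA7 had 490 CPM in corpus and 283 CPM in caput luminal cells, a ratio of 1.73 (1.32 to 2.24), and PSME1 420 and 265 CPM, a ratio of 1.58 (1.18 to 2.08). PSMB9 was 111 CPM in corpus and 179 CPM in caput T or NK-like cells, a ratio of 0.618 (0.431 to 0.868), and 152 and 143 CPM in macrophages. PSMB5 in macrophages had 56.8 CPM in corpus and 141 CPM in caput, a ratio of 0.404 (0.234 to 0.662). It was not called because the interval crossed 2-fold. Median log2 ratios over the proteasome genes tested were -0.42, -0.35, -0.29 and -0.62, against -0.49, -0.04, -0.26 and -0.32 over all features. By role, medians in luminal cells ran from -2.19 over 2 immune and thymic beta subunits tested to 0.12 over 2 activators and inhibitors tested. Absence of a call there is thus not evidence of equal levels. Region, library, depth and animal cannot be told apart here, and corpus cells held a median of 371 UMIs against 1145 in caput.

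PSMB11, the thymic beta subunit, had 0.136 CPM in testis germ cells and 0 UMIs in testis and caput somatic cells, which allows up to 7.07 CPM and 0.441 CPM there. PSMB8 had 0 UMIs in testis advanced and elongating cells, which allows up to 0.690 CPM and 3.69 CPM, and 34.1 CPM in caput T or NK-like cells. PSMD5 and PSMD10, chaperones of the cap base, had 2.65 and 8.87 CPM in testis germ cells and 7.07 and 33.0 CPM in testis somatic cells, with neither tested. PSMG2, the partner of PSMG1, had 4.08 CPM in round and 29.7 CPM in spermatocyte-like cells, 7.27-fold lower (4.95 to 10.9), and PSMD9 2.15 and 15.9 CPM, 7.41-fold lower (4.35 to 13.1). In RefSeq 8 of the 47 genes overlap another feature, among them PSMG2 with CEP76, PSMB3 with PCGF2, PSMC1 with NRDE2 and PSME1 with EMC9. Use of strand in the deposited counting was not given in the sources used here; without it, reads of such pairs cannot be told apart.

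Genes of the pathway outside the PSM names were read from lists of partners and of the interferon and peptide-loading programme. Of 21 listed partners 18 were found and 16 tested in caput germ cells of several stages against somatic cells, of which 1 was higher and 4 lower, where 12.3% and 21% of all features were. AKIRIN2, which carries proteasomes into the nucleus, was the higher one, at 170 against 19.6 CPM (8.69-fold, 6.65 to 11.3), and ZFAND5, an activator of the cap in stressed muscle of mouse, had 3.27 against 59.3 CPM with 2 UMIs in germ cells (18.1-fold lower, 4.99 to 150.3). In testis elongating over spermatocyte-like cells 3 of 10 tested partners were higher and 3 lower, where 21.5% and 35.7% of all features were. FBXO7, which binds PSMF1, was 16.9-fold higher (10.8 to 27.2), at 129 against 7.65 CPM, NGLY1, which strips glycans from proteins before they are degraded, 11.6-fold (8.998 to 15.2) and UCHL5, a deubiquitinase of the cap, 8.46-fold (5.68 to 12.8). PAAF1, a chaperone of the cap base, was 12.9-fold lower (5.86 to 35.4) and SEM1, a small lid subunit, 2.88-fold (2.28 to 3.68).

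Of 10 listed interferon and peptide-loading genes 9 were found, and in caput germ cells of several stages 0 were higher and 5 lower of 8 tested, where 12.3% and 21% of all features were. Their median log2 ratio was -2.94, against -1.26 over all features tested. B2M, the light chain of MHC class I, had 214 CPM in germ cells and 4875 CPM in somatic cells (22.8-fold lower, 19.2 to 27.3), and the peptide transporter TAP1 3.27 and 61.0 CPM (18.7-fold lower, 5.14 to 155). In testis germ cells B2M had 28.8 CPM, against 9093 CPM in somatic cells (316-fold lower, 296 to 337). In RefSeq PSMB9, TAP1, PSMB8 and TAP2 are neighbours. Among caput somatic classes NLRC5, a regulator of MHC class I genes, was the 1 of 6 tested that was higher in T or NK-like cells, at 57.8 against 18.9 CPM (3.05-fold, 2.21 to 4.19), where 4% of all features were higher.

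The barcodes rich in very long genes, 4470 in caput and 5221 in corpus, carried fewer proteasome transcripts than the named somatic cells of their libraries. Proteasome genes made up 0.175% of their UMIs in caput and 0.118% in corpus, against 0.399% in caput and 0.279% in corpus somatic cells. In caput 2 of 46 tested genes were higher and 28 lower, where 24.4% and 15.5% of all features were. In corpus 0 of 39 were higher and 24 lower, where 4.68% and 17.1% of all features were. The median log2 ratios over the proteasome genes tested were -1.39 in caput and -1.78 in corpus, against 0.69 and 0.59 over all features tested. The 2 higher genes in caput were PSMA8, at 2.21-fold (2.01 to 2.44), and PSMG2, at 3.34-fold (2.28 to 4.98). PSME1 was 4.87-fold lower (4.31 to 5.51), PSMA7 4.07-fold (3.63 to 4.58) and PSMB5 3.33-fold (2.96 to 3.75), while PSME4 stood at 79.8 against 55.6 CPM and PSMD1 at 116 against 126 CPM.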

How the data were processed

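Single-cell RNA libraries of testis, caput and corpus were analysed, with 1 library per group. The deposited matrices hold raw UMI counts per feature and barcode, which PISA 0.12 generated, per the file headers. Cell Ranger 2.1.1 appears in the submitters' processing notes without a role. Aligner, build, strand setting: not given in the sources used here. Members and lists were chosen with earlier results of these data known, and the thresholds for naming clusters were set after the clusters were seen.

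Cells with at least 200 genes were kept (8528 in testis after 82 called doublets, 9478 in caput and 9609 in corpus). A Scrublet-style caller (scikit-image 0.26.0) marked 0 barcodes in caput and corpus, so it did not work there and doublets remain. The libraries shared 7441, 7339 and 8957 barcode names (testis with caput, testis with corpus, caput with corpus), which are serial names and not sequences. Each library was clustered on log counts per 10000 with 2000 variable genes, without the PSM genes, on 30 components and 15 neighbours at Leiden resolution 1.0 with seed 0 (scanpy 1.11.5, leidenalg 0.10.2, igraph 0.11.9, Python 3.11.15). Clusters were named from marker lists where at least 3 markers and 20% of those measured reached 2-fold over the other clusters' median (10 CPM added). Clusters with intermediate germ RNA and few markers were called mixed and left out (365 and 80 testis cells).

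UMIs were summed per class into CPM with exact Poisson intervals. Ratios have exact conditional binomial intervals and shares exact Clopper-Pearson intervals, all at 95% (scipy 1.17.1, numpy 2.4.6, pandas 2.3.3), with figures from matplotlib 3.10.9. Log2 medians added 0.5 counts. A count of 0 was given a limit of 3 counts over the class. UMIs limit precision to counting error; PCR copies are collapsed by UMI. The ratio code was tested on simulated data. The text names, per comparison and direction, up to 12 genes whose interval lay farthest from 1, a fixed set of subunits, and up to 4 genes of each non-PSM list. POMP was not analysed here. Alternatives were another scaling, UMI minimum, fold, gene minimum, resolution, PSM genes kept, and removal of the highest 5% of doublet scores. Symbols came from the files, and RefSeq (EquAss-T2T_v2) served for names and neighbours only.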

Additional observations from a re-analysis of the deposited data

Results flagged for a closer look

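PSMA8 stood at 204.6 CPM in the caput barcodes rich in very long genes and at 236.7 CPM in those of corpus, barcodes of no named cell type that enter none of the germ and somatic comparisons. This is above the 92.5 CPM of PSMA8 in caput somatic cells and near its 267 CPM in testis germ cells. PSMA8 made up 76.7% of the UMIs of PSMA8 and PSMA7 in the caput barcodes (74.5 to 78.9%) and 92.0% in those of corpus (89.4 to 94.2%), and it had 67.4% to 97.6% of its testis germ level over the 7 such clusters. Germ marker RNA in the same barcodes stood at 6.93% in caput and 5.98% in corpus of its testis germ level. The cause was not tested.

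The locus that RefSeq pairs with PSMB4 by its gene identifier, LOC106848364, lies outside the naming rule and was at 85.1 CPM in testis germ cells, against 238 CPM in testis somatic cells, where it was 2.80-fold lower in germ cells (2.27 to 3.41). In testis elongating cells it had 123 CPM, 2.61-fold higher than in advanced cells (2.03 to 3.33).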

How the results depend on the processing

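No paired analysis was possible because each group has 1 library. Over the alternatives, 194 counts or shares stayed within 1.5 times or within their interval and 32 moved; of the calls for single genes 809 were the same, 31 became calls and 38 were lost, with 0 reversed. After scaling by the median ratio, caput germ cells had 24 higher and 2 lower, round cells 0 higher and 8 lower, elongating cells 2 lower, caput luminal cells 2 higher and caput macrophages 1 higher. The median shifts were 0.66 in testis germ cells, -1.26 in caput germ cells, 0.53 in round cells and -1.16 in elongating cells (log2). These shifts depend on the 50 UMI minimum, which is a different CPM in each class. With at least 10 UMIs, testis germ cells had 9 lower and corpus luminal cells 3 higher. At 1.5-fold, testis germ cells had 3 higher, round cells 3 higher, caput T or NK-like cells 1 lower, caput luminal cells 4 higher and 2 lower, caput macrophages 1 higher and caput stroma 5 lower, and corpus over caput 1 lower in each of luminal cells, stroma, macrophages and T or NK-like cells. With at least 500 genes per cell, corpus luminal cells had 0 higher and the PSMA8 share in caput luminal cells was 26.1%. At resolution 0.5, testis germ cells had 2 higher and 0 lower, round cells 0 higher and elongating cells 6 lower. The testis somatic side there was 33 T or NK-like and 18 macrophage-like cells, without stroma. With PSM genes kept, round cells had 0 higher and that share was 25.0%. Alternatives chosen after seeing the data gave, for testis germ cells, 1 higher and 0 lower against T or NK-like cells alone and 0 lower against stroma alone, where the 5 genes had under 50 UMIs, and, with germ cluster 0 as the earliest stage, 0 higher in round cells. The causes were not tested. Depth limits the testis somatic side (424053 UMIs, where 50 UMIs are 118 CPM) and corpus.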
